A study of Mus musculus with 6 samples.

Results

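The 35 genes described here carry fatty acids through oxidation in the liver or are targets of PPARA that act beside it. They were taken by symbol from the 32285 features of the deposited matrices, and each had at least 1 UMI (unique molecular identifier, the count of a captured RNA molecule) in the nuclei kept. By role they fall into 6 genes of activation and carnitine-dependent entry, 13 of mitochondrial beta-oxidation, 9 of peroxisomal steps, 4 of microsomal omega-oxidation, and 3 that are a regulator or a secreted or surface product. The study sequenced RNA of single liver nuclei from 6 male mice of strain C57BL/6JBomTac, aged 18 weeks, fed chow and fasted for 12 hours overnight, with 1 library per mouse. The control group was 3 littermates with the genotype label Plvap Control, and the knockout group was 3 mice labelled as Plvap knockouts in hepatic stellate cells, the retinoid-storing pericytes of the sinusoid. The source label of both groups names the allele Plvaptm1.1Salm with the transgene Tg(Lrat-cre)1Rshw, in which Cre recombinase is driven by Lrat, a gene of stellate cells. Whether the control mice carried Cre is not stated in the labels. No hepatocyte was the target of the deletion, so the hepatocyte comparisons ask what a stellate cell deletion of Plvap does in neighbouring cells, in keeping with the series' stated interest in the use of fatty acids by the liver. Labels name separate mice but no litter, batch or day, so the p-values measure the spread between these 6 animals.

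PPARA is a nuclear receptor that binds DNA with RXR and is switched on by fatty acids, which reach the liver from adipose tissue in fasting. Long-chain fatty acids are activated to acyl-CoA, exchanged onto carnitine to enter mitochondria and shortened there in repeated cycles of dehydrogenation, hydration, dehydrogenation and thiolysis, whose electrons pass through the electron transfer flavoprotein. Peroxisomes shorten very long chains, cytochromes of the Cyp4a family oxidise the far end of the chain in the endoplasmic reticulum, and Fgf21 is a hormone that the fasted liver secretes.

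Sequence upstream of a start site was found for 26 of the 35 genes in the RefSeq promoter table (build GRCm38.p6). Hsd17b4, Cyp4a14, Decr1, Abcd2, Acaa2, Cyp4a31, Vnn1, Crat and Cyp4a10 had no entry. The 250 bases before each start were searched on both strands for the direct repeat that PPARA and RXR are known to bind, AGGTCA followed by any base and a second AGGTCA, with up to 2 mismatches at the fixed letters. It was found in 1063 of 32851 promoters, which is 3.24%, and in 2 of the 29 promoters of the members, which is 6.90%, those of Etfa and of 1 of the 2 starts of Creb3l3. A match is a description of the letters and no site of binding, and its absence speaks only of this window. The stretches are printed from 5′ to 3′ on the strand of the named gene, and no exon of the GENCODE annotation lies in them. Etfa is shown because its window held the match, which is in capitals and lies on the opposite strand from 77 to 65 bases before the start. Slc22a5 and Etfb are shown as members whose knockout and control mice did not overlap in hepatocytes, in opposite directions. The last is the gap between Hadha and Hadhb, which are transcribed away from each other and whose levels moved together from mouse to mouse.
Etfa, chr9:55512244-55512493, minus strand: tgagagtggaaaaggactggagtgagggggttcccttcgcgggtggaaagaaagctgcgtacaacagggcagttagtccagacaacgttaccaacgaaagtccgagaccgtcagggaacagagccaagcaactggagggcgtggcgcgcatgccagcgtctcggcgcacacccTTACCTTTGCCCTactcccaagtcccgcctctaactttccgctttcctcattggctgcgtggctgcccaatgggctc
Slc22a5, chr11:53891704-53891953, minus strand: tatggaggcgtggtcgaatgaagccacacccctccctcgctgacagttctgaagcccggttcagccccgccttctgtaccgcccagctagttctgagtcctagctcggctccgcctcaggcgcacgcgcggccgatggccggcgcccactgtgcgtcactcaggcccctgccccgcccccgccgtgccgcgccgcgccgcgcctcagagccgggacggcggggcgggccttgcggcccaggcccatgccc
Etfb, chr7:43443822-43444071, plus strand: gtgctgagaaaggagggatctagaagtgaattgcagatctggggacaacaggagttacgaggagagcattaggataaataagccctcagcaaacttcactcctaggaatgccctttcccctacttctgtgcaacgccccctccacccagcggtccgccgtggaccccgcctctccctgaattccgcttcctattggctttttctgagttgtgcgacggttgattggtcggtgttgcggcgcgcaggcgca
Hadha to Hadhb, chr5:30155163-30155247, plus strand: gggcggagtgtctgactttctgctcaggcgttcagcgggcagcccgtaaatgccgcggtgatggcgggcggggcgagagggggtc
The gap shown is the 85 bases between the outermost annotated exons of both genes. In RefSeq the start sites are at 30154980 for Hadha and 30155253 for Hadhb on chromosome 5, with 272 bases between them.

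The libraries held from 23153182 to 27199466 UMIs, and 25662 nuclei were kept of 27297 barcodes, with 1 to 10 barcodes shared by any pair of libraries. Hepatocytes, named from their markers, gave 5240 nuclei (701 to 1128 per mouse, with median depths from 9185 to 11748 UMIs), and 5.51% of kept nuclei were in no class. Each of the 10 hepatocyte markers had at least 1 UMI in these nuclei, but so did each of the 10 stellate and 10 macrophage markers. The class was named from the hepatocyte markers, so their detection is no separate check of it. The summed level of the hepatocyte markers in hepatocyte nuclei was 9531 to 13799 CPM (UMI counts scaled to a common library total) in controls and 10417 to 16562 in knockouts. Plvap itself was counted in stellate nuclei of all mice, at 239, 213 and 240.0 CPM in controls and 225, 187 and 155 CPM in knockouts. Counts at the 3′ end cannot show the loss of an exon elsewhere, and no label names the deleted exons, so these values check neither the label nor the deletion. Control 1 and knockout 2 stood apart from the other 4 mice. Cluster 6 held 77.8% and 78.3% of the hepatocytes of control 1 and knockout 2, and cluster 18 held 21.9% and 20.5%, whereas cluster 5 held 57.2%, 68.7% and 72.6% in control 2, control 3 and knockout 3. In knockout 1, 617 of 781 hepatocyte nuclei were in cluster 11. A list of 11 tested genes of the fed state stood 0.72 and 0.90 above its mean on the log2 scale in control 1 and knockout 2, against -0.72 to -0.19 in the other 4, and 10 genes of fasting gluconeogenesis stood at -1.61 and -0.91, against 0.08 to 0.91. The feeding state of single mice beyond the stated fast is not in the labels, so its part in the results below was not tested.

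The first question was whether the fatty acid oxidation genes differed between knockout and control hepatocytes. No gene of 13784 tested passed an adjusted p of 0.05 in edgeR's quasi-likelihood test (percent called 0), and so none of the 35 members, all of which were tested, passed it. At an unadjusted p under 0.05 the test gave 473 genes, and DESeq2 called 14 genes (0.0772% of those it tested), of which Abcd2 was the single member. The members lay on the lower side in 27 of 35 cases, with a median log2 fold change of -0.10, beside 50.5% of all tested genes lower and a median of -0.0024. That median depended on the mice. It was -0.30 without control 2, -0.27 without knockout 2 and -0.06 without control 1, and the lower count was 18 without knockout 3. With library totals alone for scaling, 22 members and 40.7% of all genes were lower. Knockout and control mice did not overlap for 8 members. Knockouts were lower for Slc22a5, Decr1, Etfdh, Decr2, Aldh3a2 and Vnn1, a share of 6 in 35 where 3.95% of all genes did so, and higher for Etfb and Abcd2, where 3.70% of all genes did so. At an unadjusted p under 0.05 in edgeR were 4 lower members (Slc22a5, Decr2, Aldh3a2 and Vnn1, background 2.09%) and 1 higher member (Abcd2, background 1.34%). In bulk sums of this kind, fewer nuclei of a subset and less RNA per nucleus cannot be told apart. In the same hepatocyte sums, 19 of 20 abundant hepatocyte transcripts such as Alb and Ttr lay higher in knockouts (median log2 fold change 0.37), and portal or smooth muscle markers summed to 21.2 to 33.6 CPM in controls and 18.5 to 19.9 in knockouts. Whether either bears on the members was not tested.

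**Figure D1:**
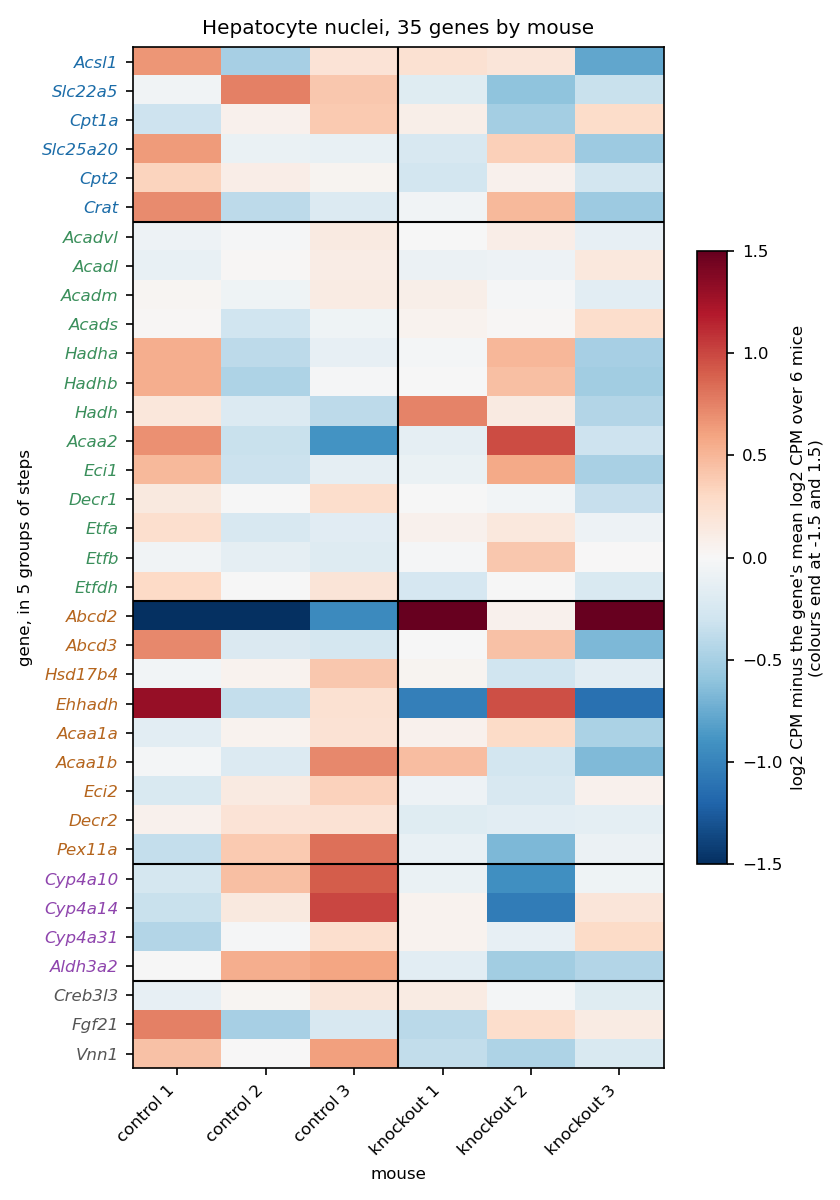
Level of each of the 35 genes in hepatocyte nuclei of each mouse, as log2 CPM minus the gene's mean log2 CPM over the 6 mice; red is above and blue below that mean, and horizontal lines part the 5 groups of steps. Control 1 and knockout 2 share colours for many mitochondrial genes and for the Cyp4a genes, and Abcd2 is the gene with the widest range between groups.

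Entry into the mitochondrion was read from 6 genes, all with a fold change under 0 (median -0.26), none past the test. Slc22a5 (ENSMUSG00000018900, chromosome 11, 53864542 to 53891660, minus strand, mm10), which encodes the carnitine transporter of the plasma membrane, stood at 86.6, 151 and 118 CPM on TMM-scaled totals in controls 1 to 3 and at 79.2, 59.1 and 71.3 CPM in knockouts 1 to 3. All 3 knockouts lay below the lowest control, control 1, by a small step. Its log2 fold change was -0.76 ± 0.23 (SE, n = 3 and 3), by edgeR (unadjusted p = 0.0114, adjusted p = 1.00), and ranged from -0.95 to -0.55 over the alternatives run. Cpt2, the inner-membrane carnitine palmitoyltransferase, measured 97.0, 82.8 and 79.7 CPM in the controls against 63.9, 81.0 and 63.8 CPM in the knockouts. Knockout 2 reached into the control range, and the log2 fold change was -0.31 ± 0.16. Slc25a20, the carnitine-acylcarnitine carrier, measured 352, 211 and 209 CPM in the controls against 192, 291 and 156 CPM in the knockouts. Its highest mice in the 2 groups were control 1 and knockout 2. Acsl1, the main acyl-CoA synthetase of long chains in liver, measured 3733, 1661 and 2720 CPM in the controls against 2764, 2671 and 1367 CPM in the knockouts, with overlapping groups and a log2 fold change of -0.25 ± 0.39 that turned to 0.05 without control 1. Cpt1a, the outer-membrane enzyme that sets the rate of entry, measured 599, 778 and 973 CPM in the controls against 791, 520 and 902 CPM in the knockouts. Here control 1 and knockout 2 were the lowest of their groups, the reverse of Slc25a20, and the log2 fold change was -0.09 ± 0.28. Crat, a carnitine acetyltransferase, had its fold change at -0.10 ± 0.36.

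Mitochondrial beta-oxidation was the group with the least shift, with 7 of 13 genes on the lower side and a median log2 fold change of -0.0052. The 4 acyl-CoA dehydrogenases, which take the first step for chains of falling length, are Acadvl, Acadl, Acadm and Acads. Their log2 fold changes were -0.02 ± 0.14, -0.01 ± 0.14, -0.06 ± 0.15 and 0.23 ± 0.15, and the first 3 varied over the 6 mice by a coefficient of variation of 6.89%, 7.81% and 7.05%, where the median over all tested genes was 19.9%. Acaa2, the mitochondrial thiolase, measured 384, 190 and 128 CPM in the controls against 218, 471 and 192 CPM in the knockouts. Control 1 and knockout 2 were the highest mice, and the log2 fold change of 0.33 ± 0.49 went to -0.19 without knockout 2. Hadha, the alpha subunit of the trifunctional protein, measured 341, 178 and 215 CPM in the controls against 229, 329 and 165 CPM in the knockouts, again with control 1 and knockout 2 highest. Hadhb, its beta subunit, followed Hadha in every mouse, and the ratio of Hadha to Hadhb CPM stayed between 1.14 and 1.29 over the 6 mice. Their log2 fold changes were -0.02 ± 0.33 and -0.05 ± 0.33.

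Electrons from beta-oxidation are handled by Etfa, Etfb and Etfdh, none of which passed the test (unadjusted p by edgeR 0.637, 0.124 and 0.0775, each with an adjusted p of 1.00), and differences between them were not tested. Etfdh (chromosome 3, 79603788 to 79629500, minus strand), the oxidoreductase that passes the electrons to ubiquinone, measured 283, 228.4 and 262 CPM in the controls against 193, 228.3 and 197 CPM in the knockouts. The groups did not overlap, though control 2 and knockout 2 differed by almost nothing, and the log2 fold change was -0.32 ± 0.16. Etfb (chromosome 7, 43444083 to 43457800, plus strand), the beta subunit of the flavoprotein, measured 66.7, 63.2 and 60.6 CPM in the controls against 68.8, 91.7 and 69.8 CPM in the knockouts. Knockouts were all above controls, most of all knockout 2, with a log2 fold change of 0.27 ± 0.16 that was 0.13 without that mouse. Etfa, the alpha subunit, overlapped between groups at 0.09 ± 0.18. Decr1 (chromosome 4, 15917240 to 15945507, minus strand), the dienoyl-CoA reductase that lets unsaturated chains through, measured 192, 172.0 and 208 CPM in the controls against 171.9, 168 and 137 CPM in the knockouts. Control 2 and knockout 1 met almost at the same value, and the log2 fold change was -0.26 ± 0.16, or -0.16 without knockout 3. Eci1, the isomerase for unsaturated chains, was at 0.01 ± 0.32, and Hadh, the short-chain hydroxyacyl dehydrogenase, at 0.35 ± 0.31 with its highest value in knockout 1, without which it was 0.0032.

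**Figure D2:**
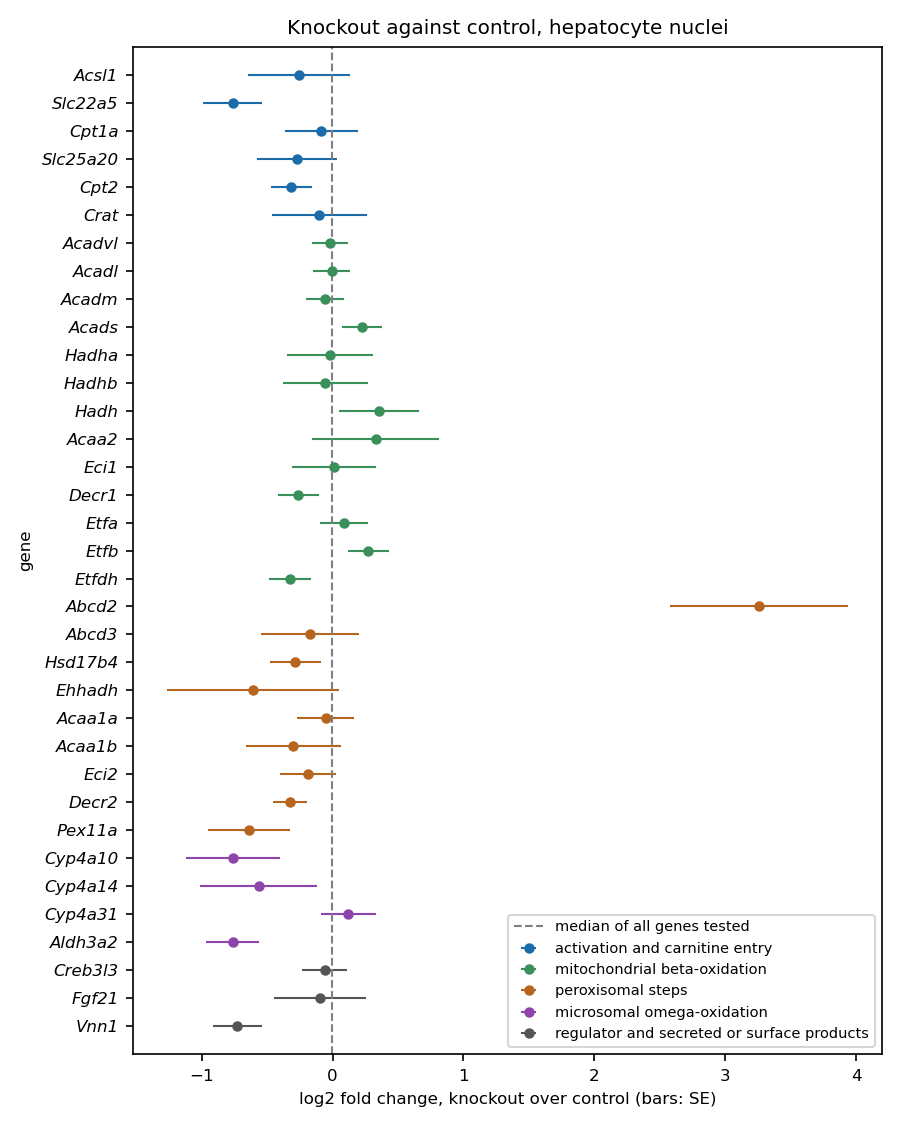
Log2 fold change of knockout over control in hepatocyte nuclei for each of the 35 genes, with bars for the SE (3 mice in each group) and colours for the 5 groups of steps; the dashed line is the median of all tested genes. Acadvl, Acadl and Acadm sit close to 0 with short bars, 8 of 9 peroxisomal and 3 of 4 microsomal genes lie left of 0, and Abcd2 lies alone at 3.26.

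Peroxisomal genes lay lower in 8 of 9 cases (median -0.29), and the exception, Abcd2, had the largest fold change among the members. Abcd2 (ENSMUSG00000055782, chromosome 15, 91145871 to 91191799, minus strand), a peroxisomal transporter of very long and polyunsaturated acyl-CoA, measured 1.29, 1.38 and 2.30 CPM in the controls against 29.3, 4.67 and 14.3 CPM in the knockouts. Every knockout exceeded every control, and knockout 1 was highest. The log2 fold change was 3.26 ± 0.68 (SE, n = 3 and 3) with an adjusted p of 1.00 in edgeR's quasi-likelihood test and of 0.0022 in DESeq2. Over the alternatives the adjusted p ranged from 0.0022 to 1.00, and leaving out 1 mouse at a time gave 2.49 (without knockout 1) to 3.71 (without knockout 2).

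The Abcd2 counts behind those levels were few. Controls held 15, 11 and 25 UMIs in 14, 8 and 19 nuclei, which is 1.24%, 1.11% and 1.92% of their hepatocyte nuclei. Knockouts held 246, 50 and 108 UMIs in 136, 39 and 72 nuclei, or 17.4%, 4.25% and 10.3%. With each nucleus thinned to 1500 UMIs the shares were 0.177%, 0.139% and 0.102% in controls and 3.86%, 0.547% and 1.44% in knockouts, so the order of the groups was the same at equal depth. In endothelial nuclei, with median depths from 3168 to 3984 UMIs, the share with an Abcd2 UMI ran from 0% to 0.444%. Macrophages carried much more, at 33.3 to 202 CPM. Macrophage markers summed to 75.7 to 156 CPM in control hepatocyte nuclei and 114 to 139 CPM in knockout ones, with all 10 detected. The part of macrophage RNA in the Abcd2 values was not tested.

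Decr2 (chromosome 17, 26081208 to 26090337, minus strand), the peroxisomal dienoyl-CoA reductase, had knockout values within a narrow range. It measured 151, 167 and 168 CPM in the controls against 128, 130.0 and 131 CPM in the knockouts, and its log2 fold change was -0.32 ± 0.13, by edgeR (unadjusted p = 0.038, adjusted p = 1.00). Values over all alternatives stayed between -0.37 and -0.27. Pex11a, which drives division of peroxisomes, measured 70.3, 118 and 160 CPM in the controls against 83.0, 56.2 and 84.6 CPM in the knockouts. Control 1 fell inside the knockout range, and the log2 fold change of -0.64 ± 0.31 was -0.17 once the cluster held mostly by knockout 1 was left out. Of the 164 nuclei then left of that mouse, 111 were in clusters with the pericentral transporter Slc1a2 among their leading genes. In the value of -0.17 a knockout effect and the changed mix of nuclei cannot be told apart. Acaa1b, a peroxisomal thiolase, measured 728, 642 and 1222 CPM in the controls against 1022, 614 and 471 CPM in the knockouts. Acaa1a is its near-identical paralog, the ratio of Acaa1b to Acaa1a CPM ran from 5.24 to 10.9 over the mice, and the sources used here do not say how reads were split between the pair. Eci2, an enoyl-CoA isomerase, measured 626, 806 and 933 CPM in the controls against 695, 619 and 763 CPM in the knockouts, a log2 fold change of -0.19 ± 0.21. Ehhadh, the peroxisomal bifunctional enzyme, is named here after its values were seen because of its spread. It measured 510, 161 and 240.5 CPM in the controls against 101, 403 and 94.9 CPM in the knockouts, so that control 1 and knockout 2 exceeded all others. The log2 fold change was -0.61 ± 0.66, and it was -1.03 without control 1 and knockout 2, -1.63 without knockout 2 alone and -0.0068 without control 1 alone. Hsd17b4, the other bifunctional enzyme, and Abcd3, the transporter of long-chain acyl-CoA, were at -0.29 ± 0.20 and -0.17 ± 0.37.

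Microsomal omega-oxidation showed the lowest median, -0.66 over 4 genes, of which 3 were lower. Cyp4a10 and Cyp4a14 hydroxylate the terminal carbon of fatty acids and are long-known PPARA targets. Cyp4a10 measured 679, 1117 and 1527 CPM in the controls against 758, 430 and 776 CPM in the knockouts, with a log2 fold change of -0.76 ± 0.36. Cyp4a14 measured 1925, 2674 and 4852 CPM in the controls against 2497, 1169 and 2732 CPM in the knockouts, with a log2 fold change of -0.56 ± 0.45. In each group the mouse with the lowest level of both was control 1 or knockout 2, and control 1 lay within the knockout range. Without control 3 the values were -0.46 for Cyp4a10 and -0.11 for Cyp4a14. Cyp4a31 was at 0.12 ± 0.21. The 3 genes lie near each other on chromosome 4, with Cyp4a14 from 115486200, Cyp4a10 from 115518264 and Cyp4a31 from 115563649, and are close paralogs, so reads could be split between them, and the values of single genes are uncertain for that reason.

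Aldh3a2 (ENSMUSG00000010025, chromosome 11, 61223417 to 61267464, minus strand), the fatty aldehyde dehydrogenase, measured 111, 163 and 169 CPM in the controls against 101, 77.97 and 82.6 CPM in the knockouts. The groups did not overlap, and the log2 fold change was -0.76 ± 0.20, by edgeR (unadjusted p = 0.0065, adjusted p = 1.00). The value changed with the hepatocytes that entered the sum. Hepatocyte clusters 15 and 18, which have Slc1a2, a pericentral transporter, among their leading genes, held 77.5% to 96.6% of the Aldh3a2 UMIs of each mouse. Those clusters made up 21.9%, 21.9% and 19.4% of hepatocyte nuclei in controls and 14.2%, 20.6% and 14.1% in knockouts. Within them Aldh3a2 measured 538, 561 and 646 CPM in the controls against 677, 397 and 503 CPM in the knockouts, so there the groups overlapped. When the cluster held mostly by knockout 1 was left out, which removed all but 164 nuclei of that mouse, the fold change turned to 0.54. Of those 164 nuclei, 111 were in clusters 15 and 18, so the Aldh3a2 level of that mouse had to rise. In the value of 0.54 a knockout effect and the changed mix of nuclei cannot be told apart. Leaving out that cluster and the split by cluster were both chosen after the values were seen.

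Among the last 3 genes, Vnn1 (ENSMUSG00000037440, chromosome 10, 23894688 to 23905343, plus strand), a pantetheinase that returns cysteamine and pantothenate from coenzyme A breakdown, measured 37.1, 27.4 and 41.6 CPM in the controls against 21.1, 19.8 and 23.2 CPM in the knockouts. Knockouts were all below controls and close to each other. The log2 fold change was -0.73 ± 0.19, by edgeR (unadjusted p = 0.0055, adjusted p = 1.00), and it was -0.33 without the cluster of knockout 1. That fit kept 164 nuclei of knockout 1, of which 111 were in the clusters with Slc1a2 among their leading genes. In the value of -0.33 a knockout effect and the changed mix of nuclei cannot be told apart. Creb3l3, a membrane-bound transcription factor that acts with PPARA in fasting, measured 379, 420.0 and 469 CPM in the controls against 448, 405 and 363 CPM in the knockouts, with overlapping groups at -0.06 ± 0.17. Fgf21 (chromosome 7, 45613886 to 45615490, minus strand) measured 49.7, 20.9 and 24.9 CPM in the controls against 22.2, 35.2 and 32.1 CPM in the knockouts. Control 1 was far above the other 2 controls, and the log2 fold change of -0.10 ± 0.35 was 0.25 without control 1 and knockout 2.

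**Figure D3:**
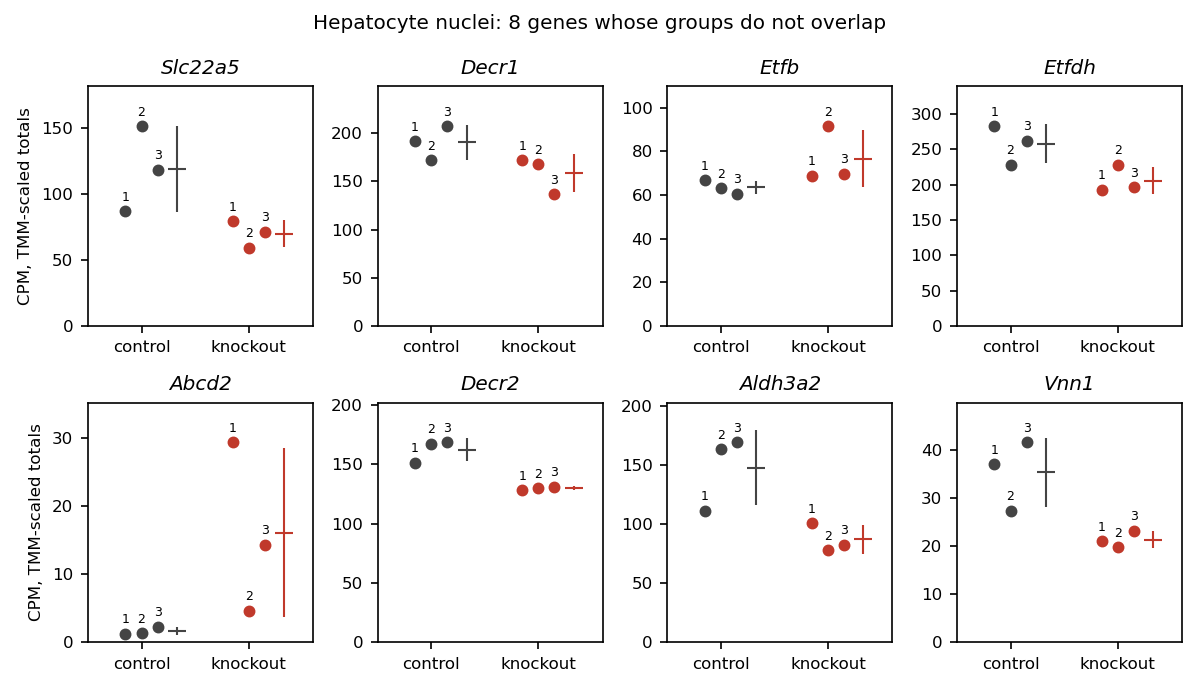
CPM on TMM-scaled totals in hepatocyte nuclei of each mouse for the 8 members whose knockout and control mice did not overlap, with numbers for the replicate and a dash with bars for the mean ± SD of each group; every axis starts at 0. Knockout mice of Decr2 lie between 128 and 131 CPM, and Abcd2 runs from 1.29 to 29.3 CPM.

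The pattern shared by control 1 and knockout 2 cut across genotype. Both mice lay above the other 4 for 10 of 35 members, where 19.0% of all tested genes did so, and both lay below for 6 of 35, where 17.7% did so. Of the 13 mitochondrial genes, 5 were in the first set (Hadha, Hadhb, Acaa2, Eci1 and Etfa), and of the 4 microsomal genes, 3 were in the second (Cyp4a10, Cyp4a14 and Cyp4a31). Both shares for the 35 members lay near or above the background, and nothing particular to them is read from these counts. Over the 6 mice the median coefficient of variation of the members was 30.9%, beside 19.9% for all tested genes. Without those 2 mice, 25 members were lower and the median log2 fold change was -0.12.

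Other genes of the same pathways, 120 in all, were read beside the members, and 109 were tested. None passed the test in edgeR, 74 lay lower, and their median log2 fold change was -0.10. At an unadjusted p under 0.05 in edgeR, 10 were lower and 1 higher, beside 2.09% and 1.34% of all tested genes. Of the 23 listed as further PPARA targets, 20 were tested, 16 were lower and the median was -0.57, with 7 that did not overlap between groups in the lower direction, as 3.95% of all tested genes did. These lists, like the members, were chosen with earlier results of these data known. Their counts are therefore a description and no independent support. Mfsd2a, a transporter of lysophosphatidylcholine that is induced by fasting, measured 215, 236 and 217 CPM in the controls against 134, 82.2 and 99.9 CPM in the knockouts, a log2 fold change of -1.08 ± 0.20. It was past the threshold in DESeq2, with an adjusted p of 0.01001, while edgeR gave 1.00. Acot1, a cytosolic acyl-CoA thioesterase, measured 22.9, 20.4 and 25.7 CPM in the controls against 13.5, 12.9 and 11.1 CPM in the knockouts (-0.88 ± 0.16). For both genes every knockout lay under every control. Without the cluster held mostly by knockout 1, Acot1 went to -0.07 and Mfsd2a to -1.65. Of the 164 nuclei then left of that mouse, 111 were in the clusters with Slc1a2 among their leading genes. In values of that fit, here and for Cd36 and Acaca below, a knockout effect and the changed mix of nuclei cannot be told apart. Cidec, a lipid droplet protein, was at 127, 95.4 and 141 CPM against 66.8, 76.9 and 66.1 CPM (-0.79 ± 0.18). Cd36, a fatty acid receptor of the cell surface, was at 41.9, 61.3 and 60.4 CPM against 35.5, 13.9 and 20.4 CPM (-1.23 ± 0.35). It went to -0.10 without the cluster held mostly by knockout 1. Ppara itself was at 1885, 1928 and 1829 CPM against 1705, 1213 and 1694 CPM (-0.29 ± 0.22, or -0.14 without knockout 2), without overlap, and Ppard, its relative, was at -0.41 ± 0.13. On the higher side, Acsl3, an acyl-CoA synthetase of lipid droplets and endoplasmic reticulum, measured 35.51, 26.8 and 25.5 CPM in the controls against 35.53, 42.6 and 44.8 CPM in the knockouts (0.48 ± 0.18). Acaca, which makes malonyl-CoA, followed with 0.49 ± 0.27 (0.25 without the cluster, 0.75 without control 1), then Mcee with 0.18 ± 0.13 and Acsl4 with 0.34 ± 0.34, which was -0.08 without knockout 2. Of the 109 genes, 2 lay higher in knockouts without overlap, Mcee and, by almost nothing, Acsl3, as 3.70% of all tested genes did.

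Position along the lobule was examined next, since fatty acid oxidation is known to differ between hepatocytes near the portal vein and those near the central vein. The hepatocyte nuclei of each mouse were ranked by a score of 12 pericentral and 12 periportal genes, none of them members, and split into 3 sets of equal size; 20.1% to 39.1% of a mouse's nuclei lay within 0.1 of a boundary. Between the pericentral and periportal sets 2831 of 11505 genes passed the test (24.6%, with 11.4% higher in pericentral and 13.2% in periportal nuclei), and 11 of 35 members did, 7 higher in pericentral and 4 in periportal nuclei. Thinned to equal depth, 6187 genes could be tested and 1125 passed, 542 higher in pericentral and 583 in periportal nuclei. Of the 34 members tested there, 7 and 4 passed. Aldh3a2 had the steepest gradient of the members. It stood at 330.3, 466, 504, 302, 230.1 and 241 CPM in pericentral nuclei of controls 1 to 3 and knockouts 1 to 3 and at 3.98, 4.91, 6.01, 7.21, 2.60 and 3.33 CPM in periportal nuclei. The ranges were far apart in all 6 mice, with a log2 fold change of 6.21 ± 0.11 and an adjusted p of 3.1e-19 by edgeR.

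The other members higher in pericentral nuclei differed by less. Vnn1 was at 42.7 ± 15.02 CPM in pericentral and 20.5 ± 6.51 CPM in periportal nuclei (mean ± SD, n = 6 mice), a log2 fold change of 1.04 ± 0.13. Pex11a was at 140 ± 64.9 and 72.7 ± 23.0 CPM (0.91 ± 0.08), and Cyp4a10 at 1115 ± 571 and 761 ± 319 CPM (0.51 ± 0.06). These 3 were higher in 6 of 6 mice, with adjusted p of 1.0e-05, 1.4e-07 and 3.2e-06 by edgeR. Slc22a5 (0.30 ± 0.09, adjusted p = 0.0189 by edgeR) was higher in 5 of 6 mice, and Acaa1a (0.26 ± 0.06) and Eci2 (0.23 ± 0.05) in 6 of 6. On the periportal side, Cyp4a31 was at 67.7 ± 10.4 CPM in pericentral and 125 ± 25.1 CPM in periportal nuclei (-0.86 ± 0.13, adjusted p = 0.0010 by edgeR), opposite to its paralog Cyp4a10. Creb3l3 (-0.36 ± 0.06), Cpt1a (-0.32 ± 0.05) and Etfb (-0.26 ± 0.08) passed as well, with adjusted p of 0.00014, 9.5e-05 and 0.0200 by edgeR, and the first 2 were higher in periportal nuclei of 6 of 6 mice, Etfb in 5. Of the 13 mitochondrial genes, Etfb was the single one to pass. Ehhadh, at 0.61 ± 0.24, missed the threshold.

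**Figure D4:**
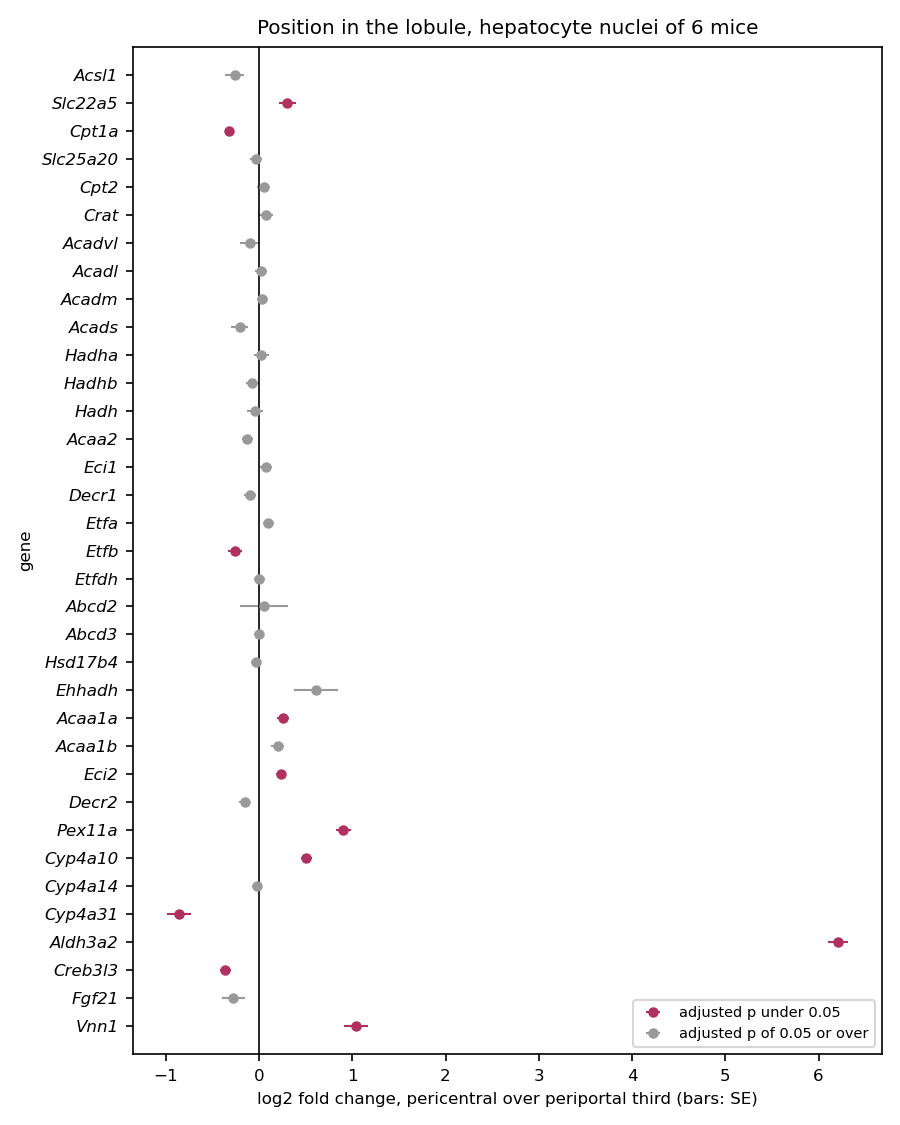
Log2 fold change of the pericentral over the periportal set of hepatocyte nuclei for each of the 35 genes, fitted with mouse as a block over 6 mice, with bars for the SE; red marks an adjusted p under 0.05. Aldh3a2 sits alone at 6.21, Vnn1 and Pex11a follow near 1, Cyp4a31 lies lowest at -0.86, and most mitochondrial genes lie near 0.

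Within the zones the knockout comparison had the same shape as in all hepatocytes. No gene passed in any of the 3 fits (percent called 0 in each), and 27, 26 and 24 of the 35 members lay lower in pericentral, middle and periportal nuclei, with medians of -0.21, -0.14 and -0.18. These medians moved with single mice, to -0.051 and -0.037 in pericentral and middle nuclei without knockout 3 and to -0.076 in periportal nuclei without control 3. In pericentral nuclei knockouts lay below controls without overlap for 4 members (background 4.19%) and above for 3 (background 4.14%), in middle nuclei for 4 (3.55%) and 2 (3.90%), and in periportal nuclei for 6 (3.60%) and 1 (3.91%). Decr2 and Vnn1 were lower and Abcd2 higher without overlap in each of the 3 zones, and Decr1 was lower in the pericentral and periportal sets. The other members higher without overlap were Acadvl (0.17 ± 0.16) and Acads (0.31 ± 0.16) in the pericentral set and Etfb (0.36 ± 0.18) in the middle set. Slc22a5 did not overlap in the middle and periportal sets, at 80.7, 156 and 107 CPM in periportal nuclei of controls and 69.9, 43.7 and 68.4 CPM in those of knockouts. Cpt2 and Etfdh did not overlap in the periportal set alone, at log2 fold changes of -0.43 ± 0.17 and -0.39 ± 0.17. Aldh3a2 did not overlap in the pericentral set, where it stood at 337, 474 and 509 CPM in controls against 304, 234 and 245 CPM in knockouts, nor in the middle set, where it reached 5.92 to 25.1 CPM against 3.53 to 5.19 CPM. The set holds a fixed share of each mouse's nuclei, while clusters 15 and 18 held a smaller share in knockouts 1 and 3, as given above. In knockout 2, the lowest mouse of the pericentral set, they held 20.6%, beside 19.4% to 21.9% in controls. Whether these shares bear on the Aldh3a2 values was not tested. The difference of the knockout effect between pericentral and periportal nuclei was tested directly, and 12 of 12201 genes passed (0.0984%), none of them members; without control 1 the count was 59 and without control 3 it was 5, again with no member. The smallest unadjusted p (2.60% of genes were under 0.05 in its direction) among members was 0.0097 for Pex11a (-0.39 ± 0.14), followed by Hadha (-0.33 ± 0.13) and Hadhb (-0.28 ± 0.12), each with an adjusted p of 0.62 to 0.79 by edgeR. These 3 were the members under an unadjusted p of 0.05. In that direction the number was 4 without knockout 1, 0 without control 3 and 0 with zones cut by 1 boundary shared by all mice.

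Other cell classes were read last, and there free RNA from broken hepatocytes had to be set beside each level. For 20 abundant hepatocyte transcripts the level in a class relative to hepatocytes had a median per mouse of 10.2% to 18.7% in stellate nuclei and up to 39.2% in B cells. Multiplying a member's hepatocyte level by that ratio gave a reference level for free RNA. The reference was too high for some genes, since in stellate nuclei 10 members lay below it in all 6 mice, with Cyp4a14 at 0.068 and Acsl1 at 0.101 of it. Members above the reference in 6 of 6 mice numbered 13 in stellate, 6 in endothelial, 11 in macrophage, 4 in T/NK, 0 in B and 6 in cholangiocyte nuclei. In stellate nuclei 9 of the 13 were genes of mitochondrial beta-oxidation. The share of all genes above such a reference was not computed, so nothing particular to the members is read from these counts. Acadl stood at 85.3 ± 9.45 CPM of unscaled totals in stellate nuclei (mean ± SD, n = 6 mice), 4.601 times its reference. In cholangiocytes it reached 145 ± 30.3 CPM and exceeded the hepatocyte level of 125 CPM in all 6 mice. Acaa2 in stellate nuclei, at 163 ± 28.7 CPM, was 4.35 times its reference. Fgf21 was nearly absent outside hepatocytes, with 7 UMIs in stellate and 0 in cholangiocyte nuclei over all mice, and the Cyp4a genes stayed under the reference in each of the 6 classes.

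Besides Acadl in cholangiocytes, Abcd2 in macrophages was the single case in which a member exceeded its hepatocyte level in all 6 mice. It stood there at 114 ± 71.7 CPM (mean ± SD, n = 6 mice), where hepatocytes held 8.86 CPM. By mouse it measured 41.2, 185 and 143 CPM in the controls against 85.2, 33.3 and 202 CPM in the knockouts. Control 1 and knockout 2 were the lowest, and the genotypes overlapped at -0.20 ± 0.86. Hsd17b4 in macrophages ran the other way, at 217, 115 and 140 CPM in controls and 139, 275 and 107 CPM in knockouts, with those same 2 mice highest. These per-mouse patterns were picked after the values were seen. In stellate nuclei Abcd2 was at 11.9 ± 4.94 CPM, 10.1 times its reference.

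**Figure D5:**
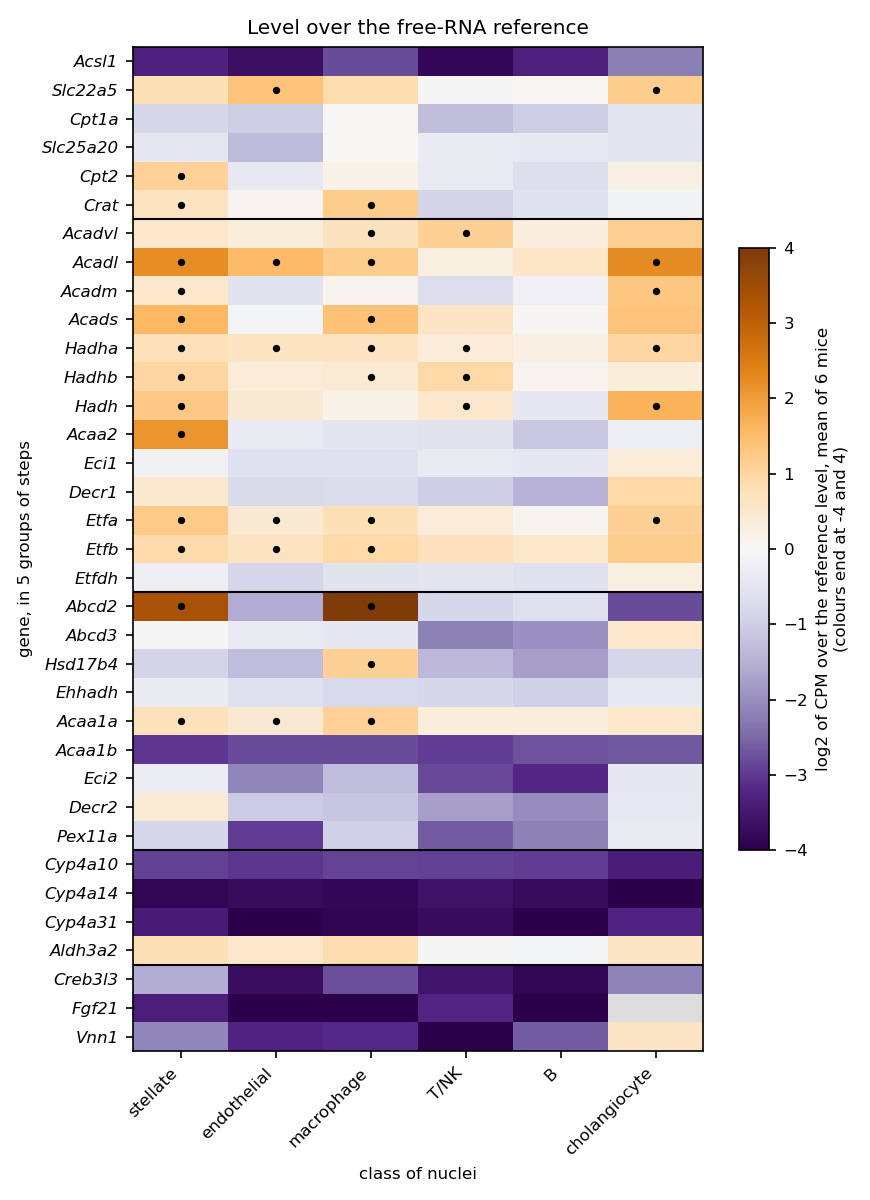
Level of each member in 6 other classes of nuclei as the log2 of its CPM over the free-RNA reference level, mean of 6 mice; orange is above and purple below the reference, dots mark members above it in all 6 mice, and grey marks a level of 0. Abcd2 in macrophages and stellate nuclei and Acadl in stellate nuclei and cholangiocytes stand highest, and the Cyp4a genes, Acsl1 and Acaa1b lie far below in every class.

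The deletion was aimed at stellate cells, and in their nuclei 6 of 12027 genes passed the knockout test (0.0499%), none of the 32 members tested. Their median log2 fold change was 0.02, with 14 lower. The members with the smallest unadjusted p were Aldh3a2 and Slc22a5. Aldh3a2 was at 27.5, 29.3 and 26.9 CPM in stellate nuclei of controls and 35.3, 33.7 and 30.3 CPM in those of knockouts, so knockouts were all higher (background for that direction 4.85%), with a log2 fold change of 0.25 ± 0.15. Slc22a5 overlapped at 0.33 ± 0.21. No member passed in endothelial, macrophage, T/NK, B or cholangiocyte nuclei either, where 0%, 0%, 0.0155%, 0.0620% and 0% of all genes were called. At an unadjusted p under 0.05 by edgeR stood Decr1 in macrophages (-0.46 ± 0.19, background 1.37%), Slc25a20 in T/NK cells (-0.69 ± 0.32, background 2.10%), Acsl1 in B cells (0.73 ± 0.29, background 2.17%) and Decr2 in cholangiocytes (-0.97 ± 0.44, background 2.13%), and Decr1 and Acsl1 lay under the free-RNA reference in all 6 mice of those classes.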

How the data were processed

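The deposited matrices hold UMI counts per gene and nuclear barcode for 6 libraries, 1 per mouse, made by the authors with Cell Ranger (version 7.0.1 per the submitters' processing notes, 7.1.0 per the file headers) on mm10; use of intronic reads and strand: not given in the sources used here. Barcodes with at least 1000 UMIs and 500 genes and under 5% mitochondrial UMIs were kept, and 805 doublets called by Scrublet (expected rate 0.06) were removed. Nuclei were clustered with scanpy 1.11.5 (3000 variable genes without the members and Plvap, 30 principal components, 15 neighbours) and leidenalg 0.10.2 (resolution 1). A cluster was named where its marker score was at least 1 and led by 0.5, with at least 3 markers detected, thresholds set after the clusters were seen. A portal or smooth muscle cluster with 0 of its own markers and 1 marker of another class among its 10 leading genes was left unnamed and not tested. Counts were summed per mouse and class and tested with edgeR 4.0.16 (quasi-likelihood, TMM scaling, filterByExpr, Benjamini-Hochberg adjustment over all genes tested, R 4.3.3), with mouse as a block between zones. CPM, SE and fold changes come from these fits; DESeq2 1.42.0, other scalings, no filter, thinning to 1500 UMIs, kept doublets, rebuilt clusters and left-out mice were alternatives. Members and lists were chosen with earlier results of these data known. Per-mouse values are given for members whose groups did not overlap and, in each group of steps, for the 3 with the smallest unadjusted p and the 2 with the highest mean CPM. Replicates are numbered in accession order and pair nothing. Positions are from GENCODE on mm10 and promoter sequences from RefSeq (GRCm38.p6). The fits were tested on simulated data.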

Additional observations from a re-analysis of the deposited data

Results flagged for a closer look

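Aldh3a2 differed in sign between cell classes. In stellate nuclei its knockout log2 fold change was 0.246, with all 3 knockouts above all 3 controls, and in hepatocytes it was -0.76, with all 3 knockouts below all 3 controls. Without the cluster held mostly by knockout 1 the hepatocyte value was 0.54. Of the 164 nuclei then left of that mouse, 111 were in clusters 15 and 18, which held most Aldh3a2 UMIs. In that value a knockout effect and the changed mix of nuclei cannot be told apart. Within clusters 15 and 18 the groups overlapped (538, 561 and 646 CPM in controls, 677, 397 and 503 CPM in knockouts). Within the pericentral set they did not (337, 474 and 509 CPM in controls, 304, 234 and 245 CPM in knockouts). There the log2 fold change was -0.75 ± 0.22 (unadjusted p = 0.0084 by edgeR), and it missed the adjusted threshold. The difference between the classes was not tested, and the value within stellate nuclei missed the threshold on its own. The stellate level exceeded the free-RNA reference in 5 of 6 mice, at 1.76 times that reference on average.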

How the results depend on the processing

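Of 241 alternatives run on summary values, 207 stayed within 1.5 times or the replicate spread and 34 moved, and of 524 run on single members, 474 kept direction and side of the threshold, 49 reversed and 1 (Abcd2 in DESeq2) passed it. In all, 16 members kept their direction throughout and 19 did not, and the causes were not tested. With library totals alone, Acadvl went to 0.042, Acadl to 0.0502, Hadha to 0.021, Acaa1a to 0.019 and Creb3l3 to 0.00083. Without control 1 and knockout 2, Crat went to 0.018, Hadha to 0.013, Eci1 to -0.047 and Fgf21 to 0.25. With thinned nuclei Acadvl was 0.14 and Hadha 0.0052. Without the cluster held by knockout 1, an alternative chosen after seeing the data, Acadvl was 0.065, Acadl 0.038, Acaa1a 0.042, Cyp4a31 -0.14 and Aldh3a2 0.54. That alternative left 164 nuclei of knockout 1, of which 111 were in the clusters with Slc1a2 among their leading genes. In its values a knockout effect and the changed mix of nuclei cannot be told apart. Leaving out 1 mouse at a time gave -0.51 to 0.0499 for Acsl1, -0.26 to 0.12 for Cpt1a, -0.56 to 0.0204 for Slc25a20, -0.40 to 0.32 for Crat, -0.0735 to 0.044 for Acadvl, -0.088 to 0.049 for Acadl, -0.12 to 0.0038 for Acadm, -0.31 to 0.30 for Hadha, -0.32 to 0.25 for Hadhb, -0.19 to 0.89 for Acaa2, -0.33 to 0.29 for Eci1, -0.0033 to 0.26 for Etfa, -0.46 to 0.23 for Abcd3, -0.22 to 0.13 for Acaa1a, -0.67 to 0.036 for Acaa1b, -0.046 to 0.29 for Cyp4a31, -0.14 to 0.021 for Creb3l3 and -0.32 to 0.38 for Fgf21.

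Counts of genes called moved as follows. DESeq2 called 14 genes in hepatocytes. With no filter on low counts the calls were 60 in stellate, 65 in endothelial, 33 in macrophage, 8 in T/NK, 18 in B and 8 in cholangiocyte nuclei. Without control 1 and knockout 2 they were 10 in periportal, 6 in endothelial, 2 in macrophage, 2 in T/NK, 17 in B and 3 in cholangiocyte nuclei. Thinning left 1125 genes of 6187 tested between zones, and zones by 1 shared boundary left 6 for the zone by genotype term. Leaving out 1 mouse gave 0 to 4 calls in middle nuclei (4 without control 1), 5 to 59 for the zone by genotype term (59 without control 1, 5 without control 3), 0 to 5 in endothelial (5 without control 1), 1 to 4 in T/NK (4 without knockout 1), 2 to 21 in B (21 without control 1) and 0 to 9 in cholangiocyte nuclei (9 without control 1). The median fold change of the members ran from -0.30 (without control 2) to -0.0600 (without control 1) in hepatocytes, -0.34 (without control 2) to -0.051 (without knockout 3) in pericentral, -0.22 (without control 2) to -0.037 (without knockout 3) in middle and -0.217 (without knockout 2) to -0.076 (without control 3) in periportal nuclei. Zones were compared within mice, but knockout and control mice could not be paired, because the labels name no litter, batch or day. Depth limits Abcd2, with 11 to 25 UMIs per control mouse, and members in T/NK and B nuclei, where 21 and 17 of 35 could be tested.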
